A study of Mus musculus with 96 samples.

Results

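Fibroblasts (FBs) of the mouse heart were compared 1 day after acute myocardial infarction (D1) with FBs of control mice without infarction (D0). The comparison used the small RNA libraries labelled FB at these days, 4 of each, which are 8 of the 96 small RNA libraries of the study. The other libraries came from FBs of D3, D7, D14 and D28 and from cardiomyocytes (CMs), endothelial cells (ECs) and hematopoietic cells (HCs) at the same 6 time points. All mice were male C57Bl/6J, 12 to 14 weeks old at surgery. Infarction was made by permanent ligation of the left anterior descending coronary artery, and the D0 mice were not operated on, so that surgery and infarction cannot be told apart in this comparison. FBs were the cells of the digested heart that did not bind the beads for CD45 or CD144 and attached to an uncoated dish within 40 minutes, and they were described as mostly DDR2-positive. Each library pooled the RNA of 3 mice (2 in some pools) and was made from 150 ng of total RNA with 15 PCR cycles. The labels call the pools biological replicates while the study also calls them technical, so the p-values below measure the spread between these pools.

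FBs build and maintain the extracellular matrix of the heart. After an infarction they pass from a resting state through an early phase of inflammation and proliferation to myofibroblasts that form the scar. A miRNA is a short RNA cut from 1 arm of a hairpin, named 5p or 3p, and it lowers the output of messenger RNAs that pair with its seed, bases 2 to 8. miRNAs with the same seed share many targets, and several of them come from 1 primary transcript as a cluster.

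The mature sequences on which the results turn are given here, because many of the miRNAs that rose on D1 share a seed. Sequences are those of RefSeq for GRCm38.p6, 5′ to 3′, with the seed in capitals.

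The first set had the seed of miR-17-5p. In GRCm38, miR-17 and miR-20a lie together on chromosome 14 (115043671 to 115044263, plus strand) in an exon of the host transcript Mir17hg. miR-106a and miR-20b lie on chromosome X (52742113 to 52742567, minus strand). miR-106b and miR-93 lie on chromosome 5 (138165523 to 138165818, minus strand) inside Mcm7, a gene of DNA replication, miR-106b in an intron and miR-93 over an annotated exon.
miR-17-5p: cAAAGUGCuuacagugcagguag
miR-20a-5p: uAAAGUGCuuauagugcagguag
miR-106a-5p: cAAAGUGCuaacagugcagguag
miR-20b-5p: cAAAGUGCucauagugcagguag
miR-93-5p: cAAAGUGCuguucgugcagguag
miR-106b-5p: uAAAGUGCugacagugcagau

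The second set was the miR-200 family, known from epithelial cells, where it holds down the transcription factors Zeb1 and Zeb2. It has 2 seeds that differ at 1 base. miR-200a, miR-200b and miR-429 lie within 1846 bases of chromosome 4 (156053905 to 156055750, minus strand) in an intron of Ttll10, and miR-200c and miR-141 within 477 bases of chromosome 6 (124717914 to 124718390, minus strand).
miR-200a-3p: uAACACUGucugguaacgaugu
miR-141-3p: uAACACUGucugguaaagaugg
miR-200b-3p: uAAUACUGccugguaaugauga
miR-200c-3p: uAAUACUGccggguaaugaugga
miR-429-3p: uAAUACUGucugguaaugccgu

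The next pairs were both miR-7 miRNAs and the 3p arms of miR-34b and miR-34c, whose hairpins lie within 612 bases of chromosome 9 (51103034 to 51103645, minus strand), opposite to an intron of Btg4.
miR-7a-5p: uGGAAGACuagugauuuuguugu
miR-7b-5p: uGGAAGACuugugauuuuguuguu
miR-34b-3p: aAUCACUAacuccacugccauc
miR-34c-3p: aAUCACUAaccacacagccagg

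The last set rose alone or fell. miR-155, miR-146b and miR-132 are induced by inflammatory signals, and the 2 miR-181 arms with a lower level on D1 share a seed.
miR-155-5p: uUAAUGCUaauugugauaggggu
miR-146b-5p: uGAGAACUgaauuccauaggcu
miR-132-3p: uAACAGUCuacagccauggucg
miR-365-3p: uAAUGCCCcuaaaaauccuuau
miR-181b-5p: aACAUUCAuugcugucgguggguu
miR-181d-5p: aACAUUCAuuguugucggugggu

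Some of these differ by so little that reads can be given to the wrong member. miR-17-5p and miR-106a-5p differ by 1 base, and miR-7a-5p and miR-7b-5p, miR-200a-3p and miR-141-3p, miR-200b-3p and miR-200c-3p, and miR-181b-5p and miR-181d-5p each by 2 edits. miR-20b-5p differs by 2 edits from miR-17-5p, miR-20a-5p and miR-106a-5p each, and miR-17-5p by 2 from miR-20a-5p. The split of counts within these pairs is uncertain.

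The libraries held 2217588 to 19196750 counts on mature miRNAs at D0 and 15374982 to 44703766 at D1. Replicate 2 of D0 was the shallowest, with 570 miRNAs detected against 814 to 852 in the other D0 libraries and 845 to 975 at D1. The share of reads in the mature tables without a match was 27.7% to 31.3% at D0 and 32.9% to 40.3% at D1, so that the days did not overlap. The part of this shift in the results below was not tested. The sum of 8 FB and mesenchymal marker miRNAs, such as miR-199a-3p and miR-199b-3p, was 80387 to 124989 CPM (mature counts scaled to a library of 1000000 counts) at D0 and 122445 to 144296 at D1, and at most 10630 in the libraries of the other cell types at these days, leaving out 1 shallow HC library of D0 in this and the following sums. It therefore fitted the label FB, as did 6 CM markers at 2066 to 5206 CPM in FBs against 603549 to 709834 in CMs at D0. The 2 EC markers, both arms of miR-126a, summed to 20888 to 36956 CPM in FBs and to 174749 to 230442 in ECs. The study set aside 1 FB replicate of D0 without naming it. All 4 were kept here, and the counts of a list without a library are given where they move by over 1.5 times.

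Of 563 miRNAs tested, 45 (7.99%) differed between D1 and D0, of which 33 (5.86%) rose and 12 (2.13%) fell. The counts of each list below are to be read beside these shares. The test was the quasi-likelihood test of edgeR, with p-values adjusted by Benjamini-Hochberg over all 563 and called under 0.05, and 140 miRNAs had an unadjusted p under that value. The rises included miRNAs with the seed of miR-17-5p, the miR-200 family, miR-7a-5p and miR-7b-5p, and miR-155-5p. They covered abundant and rare miRNAs, since 18 of the 33 rises and 8 of the 12 falls had a mean of at least 10 CPM. In 29 of the rises every D1 library was above every D0 library, and in 9 of the falls every D1 library was below. Among all miRNAs tested, 53 (9.41%) were above without overlap and 43 (7.64%) below. Levels and changes are given on the TMM scale, which sets the typical miRNA at no change, and the median log2 fold change of all miRNAs was -0.00. Scaled by library size alone the median was 0.19. All 33 rises passed the threshold under that scaling too, but of the 12 falls the 4 that did were miR-598-3p, miR-136-5p, miR-1247-5p and miR-153-3p. Without replicate 1 of D0 the number called was 26 in place of 45.

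**Figure D1:**
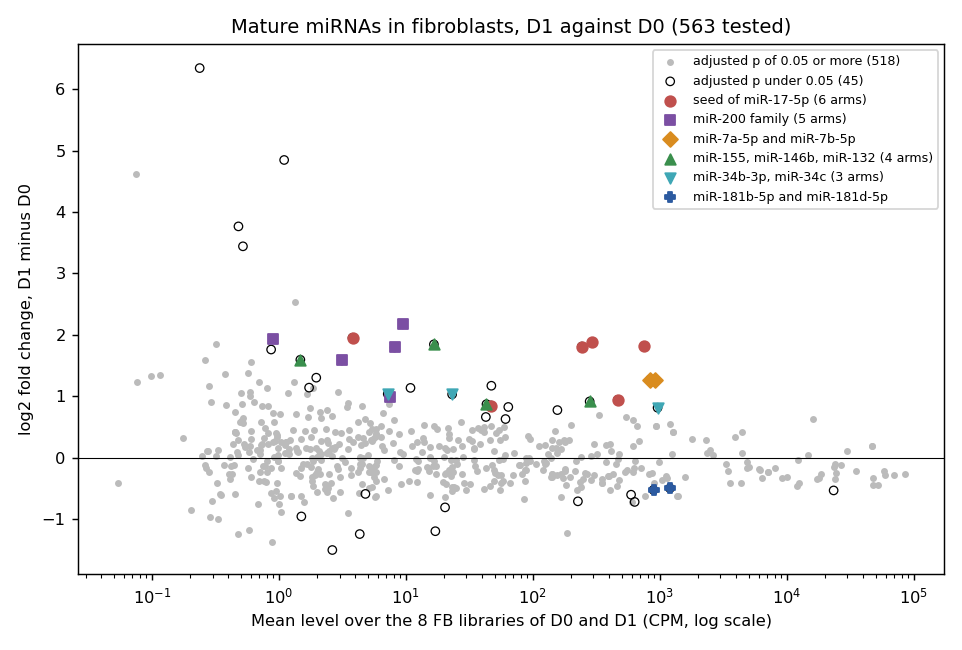
Change from D0 to D1 (log2 fold change) against mean level over the 8 FB libraries (CPM, log axis) for the 563 miRNAs tested; open circles are the 45 with an adjusted p under 0.05 and coloured symbols the miRNA groups named in the key. The miR-17-5p seed, miR-7 and miR-200 groups lie above 0, while the lowest call below 0 is miR-153-3p at -1.51.

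The miRNAs with the miR-17-5p seed all rose. They are made from the miR-17-92 cluster and its 2 paralogs, which promote proliferation and are targets of Myc and E2F factors. miR-20a-5p had 215, 160, 475 and 479 CPM in the D0 libraries (replicates 1 to 4) and 808, 764, 1093 and 2033 at D1. miR-17-5p had 91.9, 71.1, 174 and 162 CPM at D0 and 307, 287, 469 and 777 at D1. For miR-106a-5p the values were 74.9, 62.1, 152 and 140 CPM at D0 and 258, 215, 375 and 664 at D1. In all 3 the days did not overlap, replicates 3 and 4 were the highest on both days, and D1 replicate 4 was the highest of all. The log2 fold changes were 1.82 (SE 0.31, adjusted p = 0.00035) for miR-20a-5p, 1.88 (SE 0.30, adjusted p = 0.00024) for miR-17-5p and 1.81 (SE 0.31, adjusted p = 0.00035) for miR-106a-5p, or 3.52-, 3.67- and 3.5-fold. Each passed the threshold in all 15 alternative settings.

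The other members of the seed were named after their values were seen. miR-20b-5p, the cluster partner of miR-106a, rose from 0.647, 0.994, 2.64 and 1.64 CPM to 5.26, 3.73, 6.26 and 9.22 (log2 fold change 1.95, SE 0.36), without overlap and in all 15 settings. It was rare beside 3 abundant miRNAs of nearly the same sequence, so its own rise is uncertain. Of the pair inside Mcm7, miR-93-5p had 249, 190, 480 and 356 CPM at D0 and 461, 372, 750 and 870 at D1 (log2 fold change 0.94, SE 0.27, adjusted p = 0.027), and the lowest D1 libraries fell inside the D0 range. miR-106b-5p went from 19.4 to 50.6 CPM at D0 to 48.8 to 71.9 CPM at D1 (log2 fold change 0.85, SE 0.26, adjusted p = 0.04), also with overlap. Both lost their call without replicate 1 or 2 of D0 or without replicate 3 or 4 of D1, which left 4 of the 6 called.

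The list of miR-17-92 and its paralogs had 19 tested arms. Among them were both arms of miR-92b, whose hairpin lies on chromosome 3 (89227116 to 89227198, minus strand), outside these clusters. Of the 19 arms 10 rose and none fell, with a median log2 fold change of 0.80 against -0.00 for all miRNAs. Besides the 6 above, these were miR-18a-5p, miR-18a-3p, miR-92a-3p and miR-92b-3p. Without replicate 1 of D0 or replicate 3 of D1 the number that rose was 5. Differences between arms were not tested. miR-92a-3p, made from hairpins on chromosomes 14 and X, 1 in each of the clusters of miR-17 and miR-106a, had 119, 134, 115 and 93.5 CPM at D0 and 213, 144, 246 and 183 at D1 (log2 fold change 0.77, SE 0.20, adjusted p = 0.015). miR-19b-3p, which also comes from both clusters, had 226, 138, 360 and 382 CPM at D0 and 227, 222, 330 and 517 at D1, with overlapping days (log2 fold change 0.23, SE 0.28, adjusted p = 0.66). miR-25-3p, the remaining member of the Mcm7 cluster and the most abundant arm of the list, had 2145 to 3159 CPM at D0 and 2356 to 2989 at D1, a log2 difference of 0.04 with 2 SE reaching from -0.26 to 0.34. The passenger arm miR-17-3p had 3.48 to 7.87 CPM at D0 and 5.65 to 14.8 at D1 (log2 fold change 0.87, adjusted p = 0.076).

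miR-7a-5p and miR-7b-5p rose together. miR-7, known for lowering growth-factor signalling and as the partner of the circular RNA Cdr1as, is made from hairpins on 3 chromosomes, 1 of them (chromosome 13, 58392779 to 58392886, minus strand) in an intron of Hnrnpk. miR-7a-5p had 443, 474, 716 and 523 CPM at D0 and 1001, 1678, 1101 and 1403 at D1. miR-7b-5p had 389, 433, 656 and 484 CPM at D0 and 922, 1494, 1001 and 1322 at D1. The days did not overlap for either, with the lowest D1 library above the highest D0 library. The log2 fold changes were 1.26 (SE 0.23, adjusted p = 0.00061) and 1.27 (SE 0.24, adjusted p = 0.00064), and both passed in all 15 settings. Because of the likeness of the sequences these are not 2 independent observations.

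**Figure D2:**
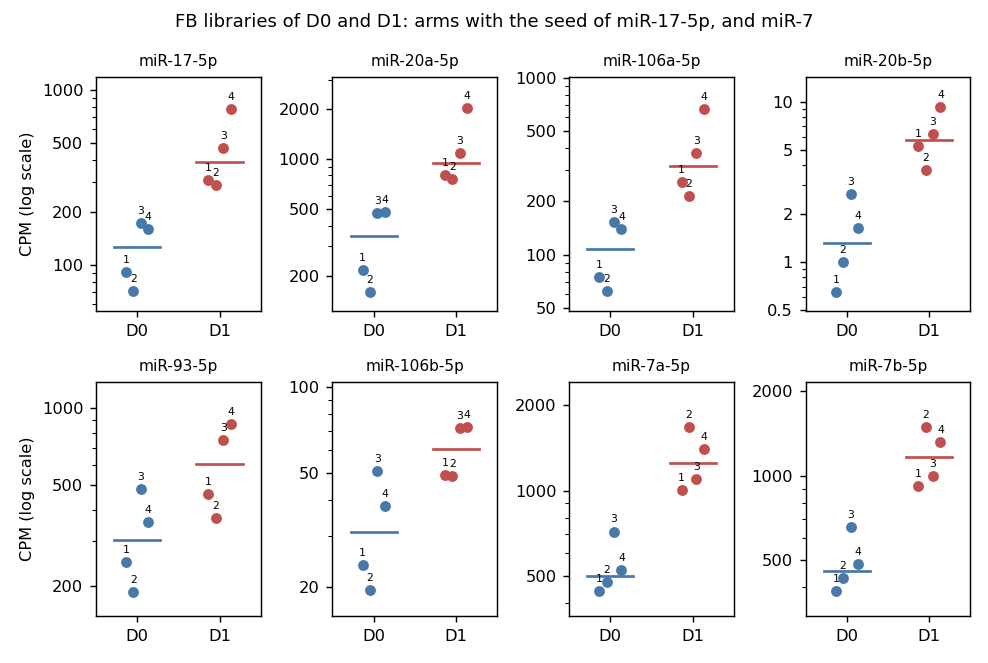
Level of each FB library (CPM, log axis) at D0 and D1 for the 6 arms with the seed of miR-17-5p and for miR-7a-5p and miR-7b-5p; points are libraries with their replicate number and lines are medians of 4. The days do not overlap except for miR-93-5p and miR-106b-5p, and for miR-20a-5p the D1 libraries reach 2033 CPM.

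The members of the miR-200 family rose from a low level. They were named after their values were seen, and of 10 arms listed the 5 tested all rose, while the 5 untested arms had at most 16 counts in any of the 8 libraries. Because they were chosen for their rise, the count of 5 is a description. miR-200a-3p had 5.17, 3.48, 1.93 and 3.11 CPM at D0 and 16.6, 15.5, 12.9 and 17.1 at D1, from 96, 7, 30 and 38 counts at D0 and 844, 353, 378 and 258 at D1. The rise was 4.5-fold (log2 fold change 2.17, SE 0.35, adjusted p = 0.00024). miR-200b-3p had 4.53, 2.98, 2.13 and 4.66 CPM at D0 and 13.3, 11.7, 13 and 13 at D1 (log2 fold change 1.79, SE 0.31, adjusted p = 0.00035). The D1 libraries of both lay close together, well above all D0 libraries.

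miR-429-3p, from the same cluster, had 0.593, 0.497, 0.193 and 0.245 CPM at D0 and 1.52, 1.53, 1.16 and 1.46 at D1 (log2 fold change 1.93, SE 0.43). The second cluster gave miR-141-3p with 2.21, 2.98, 0.967 and 0.818 CPM at D0 and 5.03, 3.81, 4.39 and 4.84 at D1 (log2 fold change 1.58, SE 0.40, adjusted p = 0.011). miR-200c-3p had 4.26, 4.97, 6.9 and 3.92 CPM at D0 and 9.43, 7.76, 12.8 and 9.81 at D1 (log2 fold change 0.98, SE 0.31, adjusted p = 0.047). None of the 3 overlapped between days. The arms of the chromosome 4 cluster passed in all 15 settings, while miR-141-3p and miR-200c-3p passed in 13 and 8, and without replicate 4 of D0 both lost the call and 3 of 5 were left.

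The member with the largest fold change was compared with the other cell types. On the scale of plain CPM, without TMM, miR-200a-3p had 56.6 to 78.1 CPM in HCs and 16.5 to 52.3 CPM in ECs at D0, against 1.71 to 5.00 in FBs at D0 and 13.2 to 18.9 in FBs at D1. HCs and ECs thus held more of it than FBs at D0. CMs went from 2.06 to 7.52 CPM at D0 to 8.98 to 15.8 CPM at D1, which overlapped with FBs on both days. In bulk libraries a larger share of another cell type and more miRNA per FB cannot be told apart. The sum of the 5 leukocyte marker miRNAs was 222 to 236 CPM in FBs at D0 and 241 to 373 CPM at D1, against 7167 to 10376 in HCs at D0 and 19084 to 26347 at D1. None of these markers was at 0 over either FB group, and their part in the rise of the miR-200 family or of miR-155-5p was not tested.

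Some miRNAs induced by inflammatory signals also rose. Of 13 tested arms in this list 4 rose, none fell and 9 did not pass, with a median log2 fold change of 0.84. Among all miRNAs tested 5.86% rose and 2.13% fell. miR-155-5p, a product of Mir155hg that NF-kB and AP-1 activate in immune cells and FBs, had 9.22, 3.48, 7.48 and 7.36 CPM at D0 and 18.2, 32.1, 23.8 and 31.2 at D1. The lowest D1 library was above the highest D0 library, and the log2 fold change was 1.84 (SE 0.29, adjusted p = 0.00022). miR-146b-5p, a brake on NF-kB signalling through Traf6 and Irak1, had 191, 200, 168 and 217 CPM at D0 and 315, 419, 287 and 442 at D1 (log2 fold change 0.91, SE 0.18, adjusted p = 0.0015). Its other arm, miR-146b-3p, rose too, from 0.497 to 1.06 CPM to 1.62 to 2.76 CPM (log2 fold change 1.59, SE 0.36). miR-146a-5p has the same seed and is made from another gene. It had 551 to 706 CPM at D0 and 541 to 673 at D1, a log2 difference of -0.05 with 2 SE reaching from -0.42 to 0.32.

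miR-132-3p, a target of CREB, had 30.5, 26.3, 34.7 and 29.9 CPM at D0 and 49.1, 49.5, 56.7 and 68 at D1 (log2 fold change 0.87, SE 0.19, adjusted p = 0.0034). Its cluster partner with the same seed, miR-212-3p, had 1.99 to 4.17 CPM at D0 and 3.96 to 7.43 at D1, a log2 difference of 0.84 that did not pass (adjusted p = 0.066). The other arms miR-132-5p and miR-155-3p did not pass either, the latter with at most 0.332 CPM in a library. miR-21a-5p, the most abundant of the list and a marker of FB activation, had 9571, 8365, 16630 and 15967 CPM at D0 and 19116, 17180, 13356 and 28114 at D1. The days overlapped through D1 replicate 3, and the log2 difference of 0.62 (SE 0.24) did not pass (adjusted p = 0.10), with 2 SE reaching from 0.14 to 1.10. Scaled by library size alone, 7 of the 13 arms rose. Among them were miR-21a-5p (log2 fold change 0.80, adjusted p = 0.030) and miR-212-3p (1.02, adjusted p = 0.024). miR-212-3p also passed with the size factors of DESeq2 (adjusted p = 0.045) and without D1 replicate 1 (adjusted p = 0.037).

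In the miR-34 family, which p53 induces and which slows the cell cycle, 3 of 6 tested arms rose, with a median log2 fold change of 0.75. miR-34b-3p had 15.4, 17.4, 14.8 and 13.6 CPM at D0 and 29.4, 29.5, 31 and 33.9 at D1 (log2 fold change 1.03, SE 0.20, adjusted p = 0.00083), and miR-34c-3p had 3.98 to 5.61 CPM at D0 and 8.1 to 12.1 at D1 (log2 fold change 1.04, SE 0.23, adjusted p = 0.0034). Both were free of overlap and passed in all 15 settings. The main arm miR-34c-5p had 518, 443, 941 and 880 CPM at D0 and 922, 1677, 905 and 1385 at D1, with overlap (log2 fold change 0.81, SE 0.24, adjusted p = 0.033), and passed in 10 settings. miR-34b-5p had 168 to 326 CPM at D0 and 283 to 307 in 3 libraries of D1, while D1 replicate 2 had 744 CPM (log2 difference 0.69, adjusted p = 0.10). miR-34a-5p, the member made from a separate gene, had a log2 difference of 0.27 (adjusted p = 0.45).

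**Figure D3:**
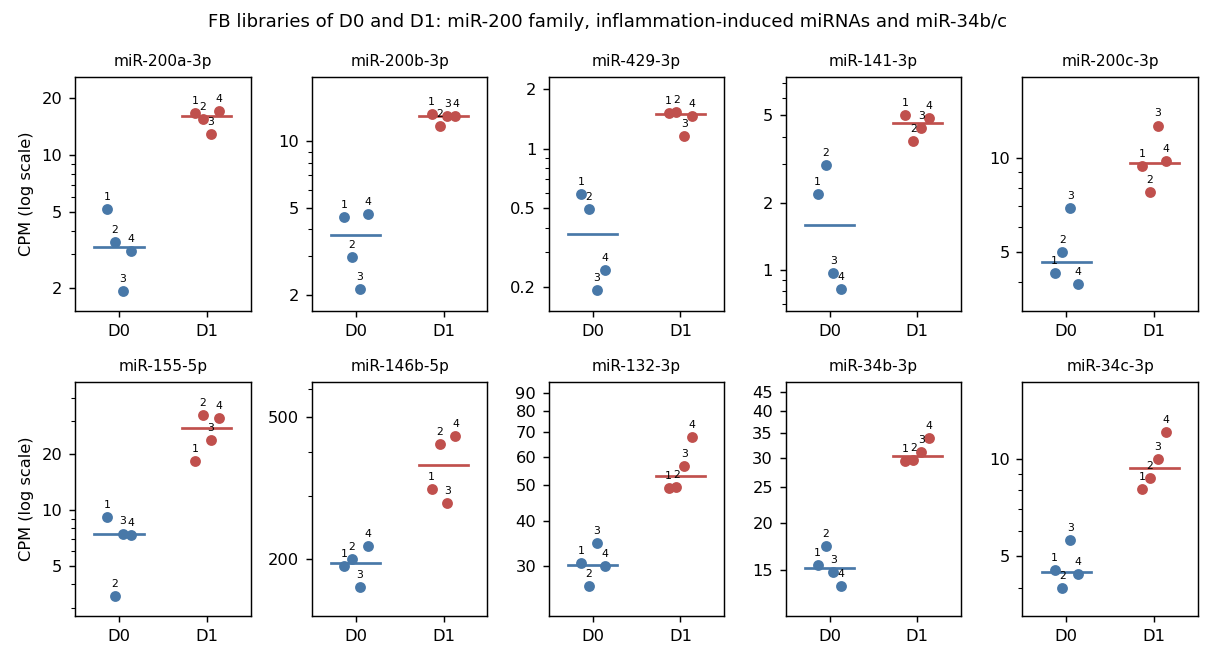
Level of each FB library (CPM, log axis) at D0 and D1 for the 5 tested arms of the miR-200 family, miR-155-5p, miR-146b-5p, miR-132-3p and the 3p arms of miR-34b and miR-34c; points are libraries with their replicate number and lines are medians of 4. The days do not overlap in any panel, and the D1 libraries of miR-200a-3p lie between 12.9 and 17.1 CPM against 1.93 to 5.17 at D0.

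miR-365-3p completed the 10 largest rises with at least 10 CPM and no overlap between days. It is made from hairpins on chromosome 11 (79726400 to 79726511, plus strand) and chromosome 16 (13453840 to 13453926, plus strand). It had 25.3, 23.9, 34 and 32 CPM at D0 and 49.3, 80.3, 56.1 and 75.7 at D1 (log2 fold change 1.17, SE 0.26, adjusted p = 0.0035), without overlap. The miR-15 and miR-16 family restrains the cell cycle. Against 5.86% and 2.13% of all miRNAs tested, 1 of its 12 tested arms rose and none fell. It was miR-15b-5p, made from an intron of Smc4 and present at 23.9 to 64.8 CPM at D0 and 67.7 to 106 at D1 (log2 fold change 0.82, SE 0.23, adjusted p = 0.025). Its call was lost without replicate 1 or 2 of D0, without replicate 3 or 4 of D1 and in a fit of the 8 libraries alone (adjusted p of 0.053 to 0.11), which left none of the 12. miR-16-5p had 898 to 1504 CPM at D0 and 912 to 1594 at D1 (log2 difference 0.06, 2 SE from -0.29 to 0.41).

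Among the 45 called, the largest fold changes belonged to 4 miRNAs with few or no counts at D0. They were named after their values were seen. miR-6399 had no count in the D0 libraries and 39, 12, 12 and 3 counts at D1, which is at least 9.01-fold higher, taking 3 counts over the D0 group as the limit that a count of 0 allows. miR-6539 had 0, 1, 1 and 1 counts at D0 and 72, 64, 59 and 29 at D1, a ratio of pooled CPM of 30.6 with a 95% counting interval of 10.3 to 149. miR-344d-3p had 3, 0, 0 and 0 counts at D0 and 34, 28, 29 and 12 at D1 (ratio 14.1, interval 4.68 to 69.3). miR-1983 had 3, 0, 0 and 1 counts at D0 and 53, 30, 7 and 20 at D1 (ratio 11.3, interval 4.27 to 42.0), and its call was lost without replicate 3 of D0. These intervals cover counting error only. In the fit of the 8 libraries of D0 and D1 alone, miR-6399 and miR-1983 did not pass the filter on low counts and were not tested. They entered the main test through the filter over the FB libraries of all days.

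Of the falls with at least 10 CPM, miR-143-3p was the most abundant. This miRNA of smooth muscle cells and pericytes, which is also abundant in FBs, had 27431, 29164, 29190 and 24710 CPM at D0 and 19383, 21220, 17944 and 17681 at D1. All D1 libraries were below all D0 libraries, and the log2 fold change was -0.54 (SE 0.13, adjusted p = 0.0072). Scaled by library size alone it was -0.34 and did not pass (adjusted p = 0.082). Another mural marker, miR-145a-5p, is cut from the same transcript and had 765 to 1135 CPM at D0 and 1157 to 1720 at D1. Its days did not overlap and it went in the other direction (log2 difference 0.54, SE 0.21), but did not pass (adjusted p = 0.11). The other arm of its hairpin, miR-145a-3p, had means of 392 CPM at D0 and 308 at D1. It was lower without overlap (log2 difference -0.35) and did not pass (adjusted p = 0.19), so the arms of miR-145a differed in direction. Of the 4 mural markers 1 fell and none rose, and miR-143-5p had a log2 difference of -0.02. Scaled by library size alone, none fell and 1 rose, miR-145a-5p (log2 fold change 0.73, adjusted p = 0.032).

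miR-598-3p fell with the fewest exceptions, from 28, 23.9, 28.5 and 23.1 CPM at D0 to 16.2, 16.3, 13.4 and 13.3 at D1 (log2 fold change -0.81, SE 0.18, adjusted p = 0.0034), and passed in 14 of 15 settings. miR-676-5p had 233 to 368 CPM at D0 and 151 to 183 at D1 (log2 fold change -0.71, adjusted p = 0.031), and its other arm miR-676-3p had 575 to 1128 CPM at D0 and 333 to 644 at D1 (log2 fold change -0.72, adjusted p = 0.042), with overlap. They passed in 6 and 5 of the 15 settings.

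In the miR-181 family, which acts in lymphocyte development and on vascular inflammation, 2 of 9 tested arms fell and none rose, and the median log2 fold change was -0.42. miR-181b-5p had 1503, 1325, 1433 and 1362 CPM at D0 and 945, 708, 1169 and 1154 at D1 (log2 fold change -0.50, SE 0.15, adjusted p = 0.038). miR-181d-5p had 1122, 1003, 1058 and 1024 CPM at D0 and 705, 498, 850 and 866 at D1 (log2 fold change -0.53, SE 0.16, adjusted p = 0.036). D1 replicate 2 was the lowest for both, and the days did not overlap. Neither passed without any 1 of the D0 libraries, without D1 replicate 1 or 2 or with library size alone, and they passed in 4 of 15 settings each. Without D0 replicate 2 the 1 fall was miR-181c-5p (adjusted p = 0.046), which differs by 1 edit from miR-181a-5p. The most abundant member miR-181a-5p had 3628 to 4422 CPM at D0 and 1967 to 3740 at D1 (log2 difference -0.42, adjusted p = 0.15).

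Among the miR-23, miR-27 and miR-24 clusters, which act in vessel growth and on FB matrix genes, 1 of 11 tested arms fell. It was miR-24-2-5p, the minor arm of miR-24-2, with 659 to 745 CPM at D0 and 530, 254, 491 and 607 at D1 (log2 fold change -0.61, SE 0.18, adjusted p = 0.036), and it passed in 5 of 15 settings. Leaving out 1 library gave 0 to 2 falls, the highest number without D1 replicate 4, where miR-27a-3p passed too, and 0 without any 1 of the D0 libraries or without D1 replicate 2 or 3. With library size alone none fell and 2 rose, miR-23a-3p (log2 fold change 0.59, adjusted p = 0.0058) and miR-23b-3p (0.51, adjusted p = 0.023). On the TMM scale these were higher by 0.41 and 0.33 and did not pass (adjusted p = 0.075 and 0.16), and miR-23a-3p passed without D1 replicate 1 (adjusted p = 0.045). The main arms miR-27b-3p and miR-27a-3p had 22502 to 30208 CPM at D0 and 17057 to 25434 at D1 over both, with log2 differences of -0.25 and -0.36 that did not pass (adjusted p = 0.17 and 0.067). The Dlk1-Dio3 cluster is a large imprinted cluster that FBs express. Of its 71 tested arms 1 rose (miR-1197-3p) and 2 fell (miR-136-5p and miR-3071-3p), and the median was -0.05. Among all miRNAs tested 5.86% rose and 2.13% fell, and nothing about the cluster is read from its few calls. With library size alone 4 of the 71 rose, 1 fell and the median was 0.13. Leaving out 1 library gave 0 or 1 rises and 0 to 2 falls, with no fall without D0 replicate 3 or 4 and no rise without any 1 of the D0 libraries or without D1 replicate 2 or 4. miR-379-5p of this cluster had 1523 to 1793 CPM at D0 and 930 to 1150 at D1, without overlap (log2 difference -0.63, adjusted p = 0.053), and miR-127-3p had 4732 to 5802 and 3934 to 5673 CPM.

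Several lists held no miRNA past the threshold. Among 20 let-7 arms, which hold back proliferation, none passed, although 19 had a negative log2 difference and the median was -0.27. With library size as the only scaling 6 of them were positive and the median was -0.08. The 3 most abundant miRNAs of FBs were let-7a-5p with 86453 to 101784 CPM at D0 and 69432 to 80844 at D1, let-7c-5p with 67448 to 88655 and 55477 to 70162, and miR-26a-5p with 57596 to 71596 and 46461 to 62299. let-7a-5p did not overlap between days, and its log2 difference was -0.26 (SE 0.11, adjusted p = 0.14). None of 11 miR-30 arms passed (median -0.33), where miR-30a-5p had 16404 to 23537 CPM at D0 and 12475 to 18302 at D1 and miR-30d-5p 16866 to 21894 and 11763 to 17273.

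The miR-29 family, which represses collagens and other matrix genes, had no call among 7 arms with all libraries. miR-29a-3p had 7531, 3422, 12397 and 10770 CPM at D0 and 7356, 6578, 6721 and 9804 at D1, and its log2 difference of -0.16 had 2 SE reaching from -0.72 to 0.40. miR-29c-3p had 2524 to 9917 CPM at D0 and 4480 to 7839 at D1. The D0 libraries of both spread more than the D1 libraries, with D0 replicate 2 the lowest. miR-29b-3p had 246, 37.8, 447 and 299 CPM at D0 and 126, 71.8, 83.1 and 161 at D1 (log2 difference -1.23, SE 0.48, adjusted p = 0.11). Without D0 replicate 2, its lowest library, it passed as a fall (log2 fold change -1.54, adjusted p = 0.019) and 1 of 7 arms was called.

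The hypoxia-induced miR-210 had 26.3 to 62.7 CPM for its 3p arm at D0 and 41.2 to 78.6 at D1, a log2 difference of 0.39 (2 SE from -0.14 to 0.92) that did not pass, and its 5p arm had at most 0.729 CPM. Of 4 arms of miR-221 and miR-222, miRNAs of proliferating cells, none passed, while 2 rose with the size factors of DESeq2 and 3 with library size alone. miR-221-3p came nearest with 470 to 607 CPM at D0 and 645 to 961 at D1, without overlap (log2 difference 0.52, adjusted p = 0.066), and miR-222-3p had 154 to 171 and 154 to 233. miR-221-3p passed in 5 of 15 settings, among them without D1 replicate 2 (adjusted p = 0.041), and miR-222-5p, a rare arm, passed without D0 replicate 4 (adjusted p = 0.021). No arm passed among 12 of the cluster of miR-322 and miR-503 on chromosome X (median 0.22), with miR-450a-5p at 124 to 166 and 120 to 260 CPM and miR-351-5p at 84.2 to 152 and 122 to 142. No arm passed among 34 of the cluster in Sfmbt2 (median 0.04), with miR-467a-5p at 21.6 to 28.8 and 20.3 to 22.8 CPM and miR-669c-5p at 11.3 to 13.3 and 9.38 to 13.7.

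The marker lists of FBs (8 tested), CMs (5), ECs (2), leukocytes (5) and erythroid cells (5) held no miRNA past the threshold. miR-199a-3p, whose counts were identical to those of miR-199b-3p, had 33563 to 51664 CPM at D0 and 42249 to 55955 at D1 (log2 difference 0.19, 2 SE from -0.09 to 0.47). miR-1a-3p of CMs had 2292 to 5044 and 2444 to 4716 CPM and miR-499-5p 17.2 to 29.8 and 15.5 to 18. miR-126a-3p of ECs had 22809 to 31392 and 26778 to 36289 CPM and miR-126a-5p 466 to 982 and 823 to 1389. miR-486a-5p of erythroid cells, identical in counts to miR-486b-5p, had 544 to 1744 and 1011 to 2314 CPM. The erythroid sum was 1374 to 4273 CPM at D0 and 2796 to 6087 at D1, and the mural sum 25006 to 27931 and 19061 to 25442. Among leukocyte markers miR-150-5p had 115 to 218 and 185 to 225 CPM and miR-142a-3p 28.3 to 99.7 and 20.3 to 69.9. The neutrophil and macrophage miRNA miR-223-3p had 0.377, 1.49, 0.193 and 0.327 CPM at D0 and 5.42, 0.877, 0.884 and 1.13 at D1 (log2 difference 2.53, SE 0.90, adjusted p = 0.076), so that D1 replicate 1 stood above the rest.

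Shared seeds were counted over the 474 of 563 tested miRNAs that matched a RefSeq mature sequence, which included 40 of the 45 called. Of these 474, 31 (6.54%) rose. miR-34c-5p, which also rose, had no match and entered no seed. Of 49 seeds with at least 2 matched miRNAs, all matched members rose in 5, and these seeds held 15 of the 31 rises. They are the seeds AAAGUGC (6 of 6), AAUACUG (3 of 3), AACACUG (2 of 2), AUCACUA (2 of 2) and GGAAGAC (2 of 2) shown above. The seed AUUGCAC of miR-92a-3p and miR-92b-3p rose in 2 of 4, and the miR-181 seed ACAUUCA fell in 2 of 4. Near-identical sequences, shared transcripts and shared libraries make members of a seed depend on each other.

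The balance of the 2 arms of a hairpin was compared as log2 of 5p over 3p counts. Of 147 hairpins tested with limma, 5 changed (3.4%), all towards the 3p arm. In miR-872, whose hairpin lies in an intron of Ift74 on chromosome 4 (94665157 to 94665237, plus strand), the log2 ratio was 2.92, 3.07, 2.85 and 2.69 at D0 and 2.32, 1.71, 1.49 and 1.93 at D1. The days did not overlap, and the change was -1.02 (SE 0.19, adjusted p = 0.0026). The level of miR-872-5p was 261 to 297 CPM at D0 and 152 to 247 at D1, and that of miR-872-3p 30.8 to 45.7 and 44.7 to 65 CPM, and neither arm passed alone (adjusted p = 0.076 and 0.13).
miR-872-5p: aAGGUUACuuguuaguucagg
miR-872-3p: uGAACUAUugcaguagccuccu

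In miR-136 of the Dlk1-Dio3 cluster the log2 ratio was -0.73, -1.27, -0.95 and -0.93 at D0 and -1.89, -3.09, -1.89 and -1.43 at D1 (change -1.11, SE 0.27, adjusted p = 0.022), with D1 replicate 2 the lowest. miR-136-5p itself fell, from 24.1, 8.95, 31.2 and 29.7 CPM to 11.1, 4.3, 10.6 and 16.4 (log2 fold change -1.20, SE 0.33, adjusted p = 0.023), while miR-136-3p had a log2 difference of -0.17 (adjusted p = 0.74). In miR-532 the ratio was 6.18, 6.47, 5.74 and 5.60 at D0 and 5.20, 5.54, 5.05 and 5.02 at D1, lower by 0.79 on average (SE 0.21, adjusted p = 0.037) and free of overlap with the days only just apart. The remaining hairpins, miR-33 and miR-3061, rested on few counts. With a pseudocount of 5 there were 2 hairpins towards 5p and 3 towards 3p, and in a fit of the 8 libraries alone 1 hairpin passed.

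**Figure D4:**
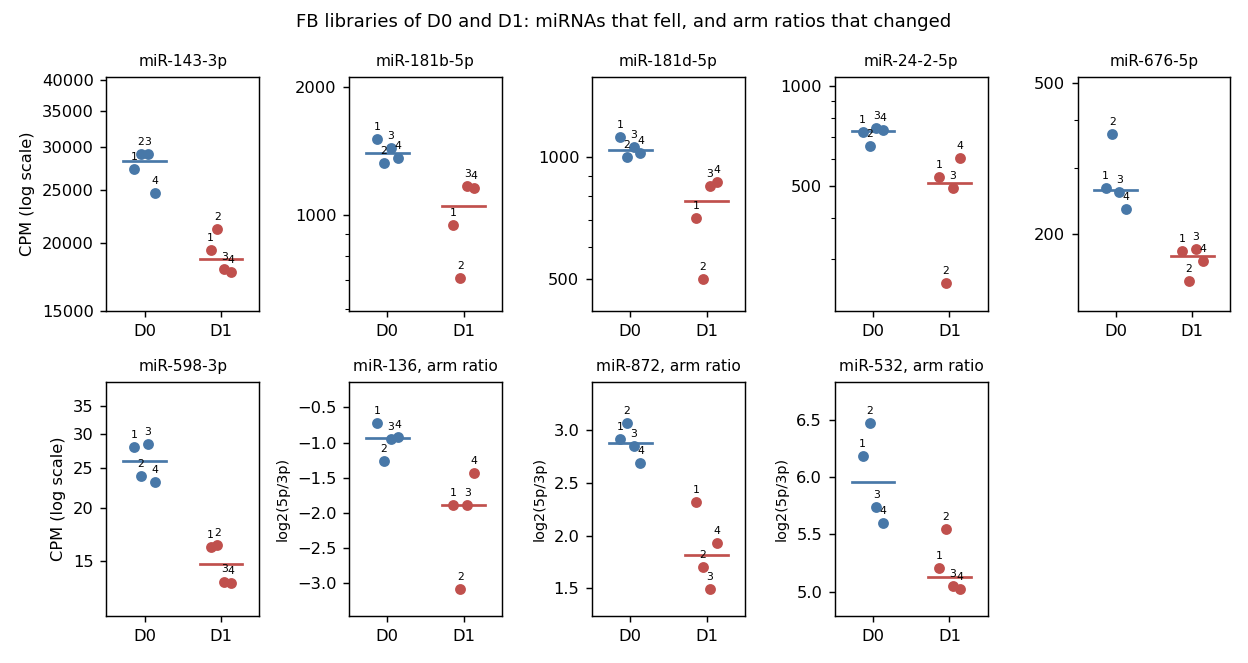
Level of each FB library (CPM, log axis) at D0 and D1 for the 6 falls with at least 10 CPM and no overlap. Falls whose days overlapped, miR-136-5p (log2 fold change -1.20) and miR-676-3p (-0.72), are not among these 6. Further panels give the arm balance of miR-136, miR-872 and miR-532, as log2 of 5p over 3p. Points are libraries with their replicate number and lines are medians of 4. The levels of miR-143-3p go from 24710 to 29190 CPM at D0 to 17681 to 21220 at D1, and D1 replicate 2 is the lowest for miR-181b-5p, miR-181d-5p and miR-24-2-5p.

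The levels 2 days later place these changes in time. Between D1 and D3, 156 of 563 miRNAs (27.7%) differed in FBs, 86 higher (15.3%) and 70 lower (12.4%) at D3. Of the 33 miRNAs that rose on D1, 10 were higher again at D3 and 3 were lower. miR-7a-5p went on to a mean of 2631 CPM ± 605 (SD, n = 4) at D3 (D3 minus D1 1.02, SE 0.23, adjusted p = 0.0017), and miR-155-5p to 53.7 CPM ± 4.59 (SD, n = 4; 1.03, SE 0.27, adjusted p = 0.0065). miR-34c-5p reached 2056 CPM ± 269 (SD, n = 4; 0.75, SE 0.24, adjusted p = 0.019). For miR-17-5p the difference of 0.40 between D3 and D1 did not pass (adjusted p = 0.32), nor did that of miR-146b-5p (0.22, adjusted p = 0.37). miR-92a-3p was lower at D3 than at D1 (-0.67, SE 0.20, adjusted p = 0.014), and so were miR-92b-3p and miR-8114. Of the 12 that fell on D1, miR-676-3p was lower again and miR-301a-5p was higher at D3. The comparisons D1 against D0 and D3 against D1 share the D1 libraries.

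Later medians are given as a description. miR-17-5p had medians of 127, 388, 626, 80.7, 89.2 and 124 CPM from D0 to D28. miR-7a-5p had 499, 1252, 2617, 1022, 592 and 545 CPM on the same 6 days. Both were back near their D0 level by D14. miR-155-5p had 7.42, 27.5, 54.3, 48.8, 47.2 and 26.9 CPM and was above all D0 libraries in every library of D28, which held 19.8 to 35.1 CPM. miR-146b-5p was highest at D7 with a median of 696 CPM, against 367 at D1. miR-143-3p, with medians of 28298 CPM at D0 and 18664 at D1, had 16537 at D3 and 26862 at D7.

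**Figure D5:**
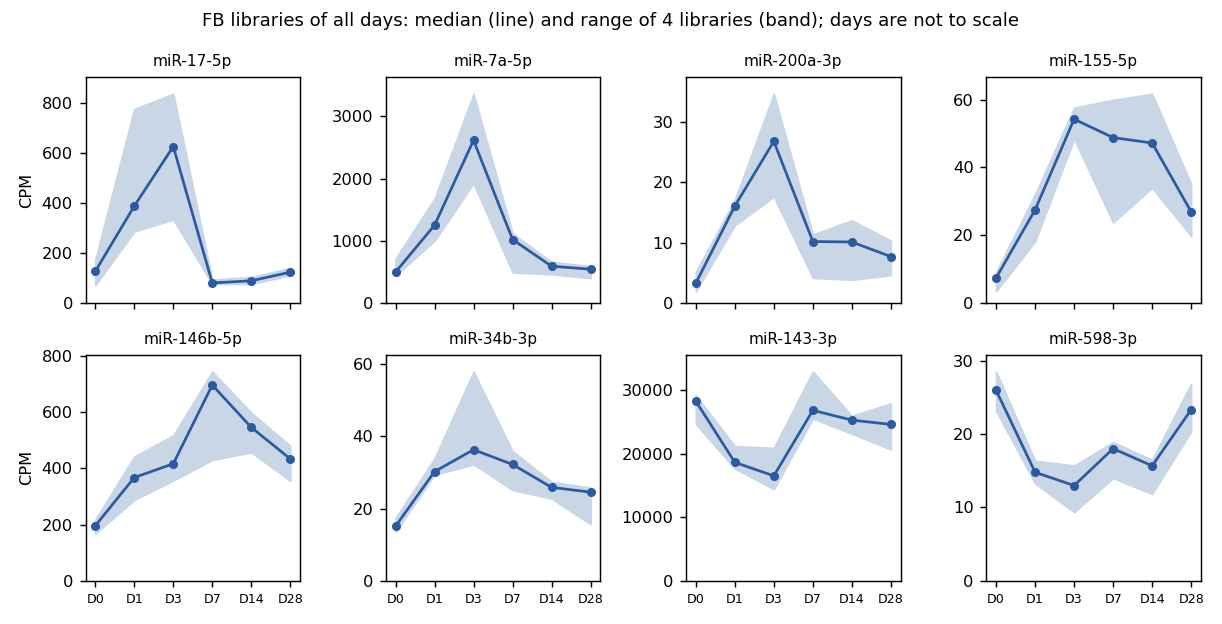
Level in FBs (CPM, linear axis from 0) at D0, D1, D3, D7, D14 and D28 for 8 miRNAs; lines join medians of 4 libraries, bands span the lowest to the highest library, and the days are evenly spaced. miR-17-5p and miR-7a-5p have their highest median at D3, miR-146b-5p at D7, and miR-143-3p its lowest median at D3.

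Whether the D1 change was that of HCs from the same hearts was tested as a difference of changes over the FB and HC libraries. These had the same input and number of cycles, but HC libraries differed between days. Without replicate 3 of HC D0, which held 18286 counts, they held 26449253 to 29504666 counts at D0 and 4684153 to 9808466 at D1. Their share of reads without a match was 34.3% to 39.6% at D0 and 52.1% to 73.8% at D1. The part of these shifts in the differences was not tested. Of 696 miRNAs, 215 (30.9%) had a different change, 153 (22%) above in FBs and 62 (8.91%) below. This split depends on the scaling, since the median difference over all miRNAs was 0.47 with TMM, 0.13 with the size factors of DESeq2 and -0.00 with library size alone, and the numbers above and below were 84 and 90, and 75 and 107, under the last pair. The following differences therefore passed under all 3 scalings and also without replicate 3 of HC D0. Over all 696 miRNAs, 73 (10.5%) passed in this way above and 62 (8.91%) below. Of the 33 miRNAs that rose in FBs, 8 had a change above that of HCs and none below, but miRNAs chosen for a rise in FBs lean above by that choice, and nothing is read from the count. miR-155-5p changed by 1.80 in FBs and by -0.89 in HCs on the log2 scale (difference 2.69, SE 0.43, adjusted p = 6.5e-06). miR-200a-3p changed by 2.13 and -0.54, and miR-146b-5p by 0.89 and -0.80. The others were miR-200b-3p, miR-141-3p, miR-429-3p, miR-34b-3p and miR-8114. Of the falls, miR-143-3p changed less in FBs (-0.55) than in HCs (-1.64), and miR-301a-5p changed by -0.61 in FBs and 0.57 in HCs. In plain CPM, the mural marker sum of HCs, without replicate 3 of D0, was 22003 to 32678 at D0 and 9606 to 15277 at D1. The leukocyte marker sum of HCs was 7167 to 10376 and 19084 to 26347. A changed share of other cells in the HC libraries and a change within HCs cannot be told apart. For miR-20a-5p the changes were 1.78 in FBs and 1.22 in HCs (difference 0.56, SE 0.39, adjusted p = 0.28), and for miR-7a-5p 1.25 and 1.52 (difference -0.27, SE 0.28, adjusted p = 0.49). These tests did not pass under any of the 3 scalings. The FB and HC pools of a day came from the same animals, and the fit took the libraries as independent. With the replicate number within each day as a block, 201 miRNAs had a different change, 147 above and 54 below. This block assumes that equal numbers mark the same animals. The 10 changed miRNAs named here as above or below HCs passed too. Of the miR-17-5p seed, miR-17-5p (difference 0.95, adjusted p = 0.021), miR-106a-5p (0.93, adjusted p = 0.024) and miR-20b-5p (1.95, adjusted p = 0.014) passed above HCs with the block. Without it they did not pass under any of the 3 scalings. miR-20a-5p, miR-93-5p and miR-106b-5p did not pass with the block.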

How the data were processed

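The authors trimmed adaptors, removed reads under 18 nt and aligned the rest to miRBase with the nf-core small RNA pipeline. The submitters' processing notes name Trim Galore, Bowtie2, SAMtools and mm10, and the aligner settings are not given in the sources used here. The values deposited by the authors are raw counts per mature miRNA, with no normalization and no molecular identifiers. The line of reads without a match names no miRNA and entered neither library sizes nor tests (27.7% to 40.3% of the total in these 8 libraries). How reads that fit several sequences were counted is not stated, and 123 miRNAs in 38 sets had identical counts in all FB libraries. Hairpin tables were not used.

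The miRNAs and lists described were chosen with earlier results of these data known. All 24 FB libraries entered 1 fit in edgeR 4.0.16 (R 4.3.3), with filterByExpr (563 of 1978 mature sequences), TMM and the quasi-likelihood test of D1 against D0 and D3 against D1, with Benjamini-Hochberg adjustment. SEs are the log2 fold change divided by the square root of F, and intervals span 2 SE. CPM are on the TMM scale, and sums and levels across cell types are plain CPM. The difference between FB and HC changes used 48 libraries. For arm ratios limma 3.58.1 was run on log2 of 5p over 3p counts (pseudocount 0.5) where both arms averaged 10 counts or more. DESeq2 1.42.0 was an alternative. Scripts were tested on simulated data. Sequences came from RefSeq and positions from GENCODE, both GRCm38, and tables were handled in Python 3.11.15.

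Named miRNAs were the 10 largest rises and 10 largest falls (6 qualified) that passed 0.05 after adjustment, averaged 10 CPM or more and showed no overlap, their other arms, the 2 most abundant members of each list, the 3 most abundant miRNAs, and 3 hairpins with the largest change of the arm ratio among those past the threshold with at least 50 counts per arm. Others, such as the miR-200 family, were chosen after their values were seen. Depth ranged from 2217588 to 44703766 counts per library. No 2 libraries of 1 day agreed within counting noise (chi-square of 214 to 2506 per degree of freedom), so none was taken as a repeat of another; this does not tell biological from technical replicates.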

Additional observations from a re-analysis of the deposited data

Results flagged for a closer look

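A single library stood apart in 6 of 160 groups of 4 libraries, where chance gives about 5%. At D1, replicate 2 had 4716 CPM of miR-1a-3p against 2444 to 2786 in the others, 744 CPM of miR-34b-5p against 283 to 307, and 15.5 CPM of miR-499-5p against 18 in each of the others. Replicate 1 of D1 had 69432 CPM of let-7a-5p against 79916 to 80844. At D0, replicate 2 had 0.497 CPM of miR-6539, from 1 count, and replicate 1 had 0.162 CPM of miR-344d-3p, from 3 counts.

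With TMM the D1 change differed between FBs and HCs for 215 of all 696 miRNAs (30.9%). Among them were 15 of the 33 miRNAs that rose in FBs and 3 of the 12 that fell. Since these were chosen for a change in FBs, nothing is read from the counts. For the 10 of these that also passed under the other scalings and without replicate 3 of HC D0, the log2 D1 change is compared here. It was higher in FBs by 2.69 for miR-155-5p, 2.67 for miR-200a-3p, 2.38 for miR-200b-3p, 2.38 for miR-141-3p, 1.90 for miR-429-3p, 1.77 for miR-34b-3p, 1.69 for miR-146b-5p, 1.62 for miR-8114 and 1.09 for miR-143-3p. For miR-301a-5p the difference was -1.18.

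Of the miRNAs that changed on D1, 15 also differed between D3 and D1. They were higher at D3 by 4.11 for miR-1983, 1.91 for miR-344d-3p, 1.73 for miR-1197-3p, 1.07 for miR-7b-5p, 1.03 for miR-155-5p, 1.02 for miR-7a-5p, 1.00 for miR-301a-5p, 0.98 for miR-141-3p, 0.94 for miR-18a-5p, 0.75 for miR-34c-5p and 0.61 for miR-34c-3p. The differences were -0.90 for miR-8114, -0.80 for miR-676-3p, -0.67 for miR-92a-3p and -0.60 for miR-92b-3p.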

How the results depend on the processing

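The number called for D1 against D0 was 45 (33 rose, 12 fell). With library size alone, 62 rose and 4 fell. DESeq2 had 19 falls, and without a filter on low counts there were 7. In the 8 libraries alone 29 were called, 5 of them falls. Leaving out 1 library gave 26 to 41 calls, 22 to 33 rises and 4 to 11 falls, with the fewest without replicate 1 of D0, and 5 and 6 falls without replicates 3 and 2 of D0. Of the 33 rises 19, and of the 12 falls 2, passed without each library in turn, and all kept their direction. For arm ratios (5 towards 3p, 0 towards 5p), a pseudocount of 5 and a minimum of 50 counts per arm each gave 3 and 2, the 8 libraries alone gave 1 call, 1 towards 3p, and leaving out 1 library gave 3 to 8 calls, 3 to 6 towards 3p and 0 to 2 towards 5p, with 8 without replicate 4 of D0 and 3 without replicate 1 or 2 of D0 or replicate 1, 2 or 3 of D1. For D3 against D1 (70 lower), 32 were lower with library size alone and 30 without a filter, and leaving out 1 library gave 97 to 180 calls, 70 to 98 higher and 21 to 82 lower, with the fewest calls without replicate 2 of D3, and 23 and 38 lower without replicate 1 of D3 and replicate 3 of D1. For FBs against HCs, 84 were above in FBs with RLE, 83 with DESeq2 and 75 with library size alone, where 107 were below, and leaving out 1 library gave 176 to 226 calls, 125 to 164 above and 50 to 69 below. The causes were not tested.

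With the replicate number as a block, 41 miRNAs were called for D1 against D0 (39 of the 45). Same-numbered libraries of D0 and D1 had correlations of 0.10, 0.01, -0.04 and 0.37, so the numbers were not taken as pairs. Depth limits the rare miRNAs most, above all in replicate 2 of D0.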
